A study of Mus musculus and Rattus norvegicus with 12 samples.

Results

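Gene expression was compared between 3 mouse extraembryonic endoderm (XEN) stem cell lines and 2 mouse embryonic stem (ES) lines, 5 of the 12 samples of a study that also holds other mouse and rat endoderm lines. The samples were chosen by their titles, XEN1, XEN2 and XEN5 against ES2 and ES3. All 5 lines came from blastocysts of the ICR strain, each was derived independently, and each was collected after 2 days of culture in its own medium. The XEN lines grew on mouse embryo fibroblasts in 20% fetal bovine serum. The ES lines grew in 15% serum with leukaemia inhibitory factor (LIF) and a pair of kinase inhibitors known as 2i. XEN1 was labelled female at passages 9 and 10, XEN2 male at 20 and 21, and XEN5 male at 19 and 21. ES2 was labelled male at passages 15 and 16, and ES3 female at 14 and 16. Each sample is 1 line, so the spread given below is the spread between lines. For tests and standard errors it was estimated together with 3 other mouse endoderm lines of the study (pXEN). Cell type and culture conditions changed together between the groups and cannot be told apart. The labels used here name feeder cells for XEN, do not say whether the ES lines had them when collected, and do not say whether feeders were removed before RNA was extracted.

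The early mouse embryo sets aside primitive endoderm, which builds the yolk sac and lays down its basement membrane, from epiblast, which builds the body. XEN lines are the cultured form of the first and ES lines of the second. GATA factors and Sox17 hold the endoderm state, while Oct4 (Pou5f1), Sox2 and Nanog hold the pluripotent state. The endoderm next to the outer wall of the yolk sac, the parietal endoderm, secretes laminin and type IV collagen in bulk, and the endoderm around the embryo, the visceral endoderm, takes up and hands on nutrients.

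Gene counts totalled 2661691 to 3483069 per line, of which the ribosomal RNA precursor row Rn45s took 27.1% to 50.1%, and 12998 to 14319 genes had at least 1 count. Levels are given as CPM, the library's counts scaled to a common total, which do not correct for gene length, so a higher CPM of one gene than of another does not show more transcripts. Of 10895 genes tested with edgeR's quasi-likelihood test, 2251 (20.7%) were higher and 1937 (17.8%) lower in XEN at a Benjamini-Hochberg adjusted p under 0.05, called higher or lower below. These percentages are the background for each gene list, and the median log2 fold change (XEN over ES) of all genes tested was 0.00. A gene at 0 counts in 1 group could pass the filter on low counts only through other lines, and be called 1 way only. Of these calls, 1035 higher and 770 lower genes kept their call in each of 5 fits that left out 1 of the lines. Without ES2 the counts were 1277 and 1197, and without ES3 1463 and 1262.

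The labelled cell types were set beside marker genes. The lists were chosen with earlier results of these data known, so they are not an independent check of the labels. The endoderm list also holds Aqp8 and Bmper, the genes of highest fold change in this comparison. Of 25 XEN and primitive endoderm markers, 24 were higher in XEN and 0 lower, and each of these calls held without any one line. The remaining marker, Amn, the anchor of the uptake receptor cubilin, stood at 9.35, 29.7 and 0.264 CPM in XEN1, XEN2 and XEN5 against 1 and 0 counts in ES (adjusted p = 0.136). Summed over the list, the level was 33374, 14135 and 19212 CPM in XEN1, XEN2 and XEN5 and 187 and 383 in ES2 and ES3. Of 22 ES markers 20 were lower in XEN, and summed they reached 202, 324 and 246 CPM in XEN1, XEN2 and XEN5 and 5658 and 5679 in ES2 and ES3. The ES sums therefore lay far above the XEN sums for ES markers and far below them for endoderm markers, with no overlap.

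Genes of fibroblasts were also higher in XEN. Of 28 listed, 22 were tested, 20 were higher and 0 lower, with a median log2 fold change of 5.93 (5.05 with genes at 0 counts in 1 group set to their bound). The calls of 16 of these genes held without any one line. Of the 28 listed, 12 had 0 counts in both ES lines, so those tested among them could be called only higher. Their calls are no separate evidence. Over all genes, 1471 of the 16756 with counts in these lines had counts in XEN only. The summed level of the list was 881, 971 and 1145 CPM in XEN1, XEN2 and XEN5 and 38.7 and 25.3 in ES2 and ES3. Col1a1, a chain of type I collagen, stood at 35.9, 31.4 and 43.3 CPM in XEN1, XEN2 and XEN5 against 2 counts in ES, and the transcription factor Prrx1 at 14.0, 24.2 and 30.6 CPM against 0. Other defining genes were at or near 0 in XEN too: Fap and Osr1 had 0 counts, Meox2 had 3 and Twist2 9 over the 3 lines. The labels do not give the feeders' share of the RNA in either group, and the part of such cells in this and the following differences was not tested. In bulk RNA a smaller share of a cell type and less RNA per cell cannot be told apart.

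The genes with the highest fold changes had 0 counts in both ES lines. Aqp8, a water channel (chr7:123462291-123468004, plus strand, GRCm38), stood at 323, 149.9 and 188 CPM in XEN1, XEN2 and XEN5 and was at least 367-fold higher (adjusted p = 4.11e-06, edgeR's quasi-likelihood test). XEN1 was the highest of the 3 lines and XEN2 the lowest, and all lay far from the ES lines. Bmper, a secreted binder of bone morphogenetic proteins, stood at 191, 128 and 86.9 CPM (at least 225-fold). The pioneer transcription factor Foxa2 varied less, at 110.3, 125 and 99.1 CPM (at least 186-fold). Cav1, the coat protein of caveolae, reached 77.2, 84.0 and 114 CPM (at least 153-fold), and Adora1, an adenosine receptor, 137, 71.5 and 55.0 CPM (at least 146-fold).

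Gata6, the regulator that starts primitive endoderm, stood at 106, 74.2 and 77.1 CPM and was at least 143-fold higher than in ES. B4galnt2, Klb and Pla2g12b were also among the 12 highest. B4galnt2, a transferase of N-acetylgalactosamine, stood at 90.8, 60.6 and 86.1 CPM. Klb, the co-receptor for endocrine FGFs, stood at 98.6, 86.5 and 41.7 CPM, lowest in XEN5. Pla2g12b, a phospholipase family member, stood at 45.6, 67.3 and 54.4 CPM. The last 3 of the 12 differed more between XEN lines. Wfdc1, a secreted protein with a WAP domain, stood at 88.8, 14.5 and 58.9 CPM, and Tfec, a transcription factor of the Mitf family, at 12.9, 58.9 and 84.5 CPM. Enpep, aminopeptidase A, stood at 77.2, 26.7 and 48.3 CPM (adjusted p = 0.0287), and its call was lost without XEN1, ES2 or ES3 (adjusted p up to 0.117) or with no filter on low counts (adjusted p = 0.0880).

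**Figure D1:**
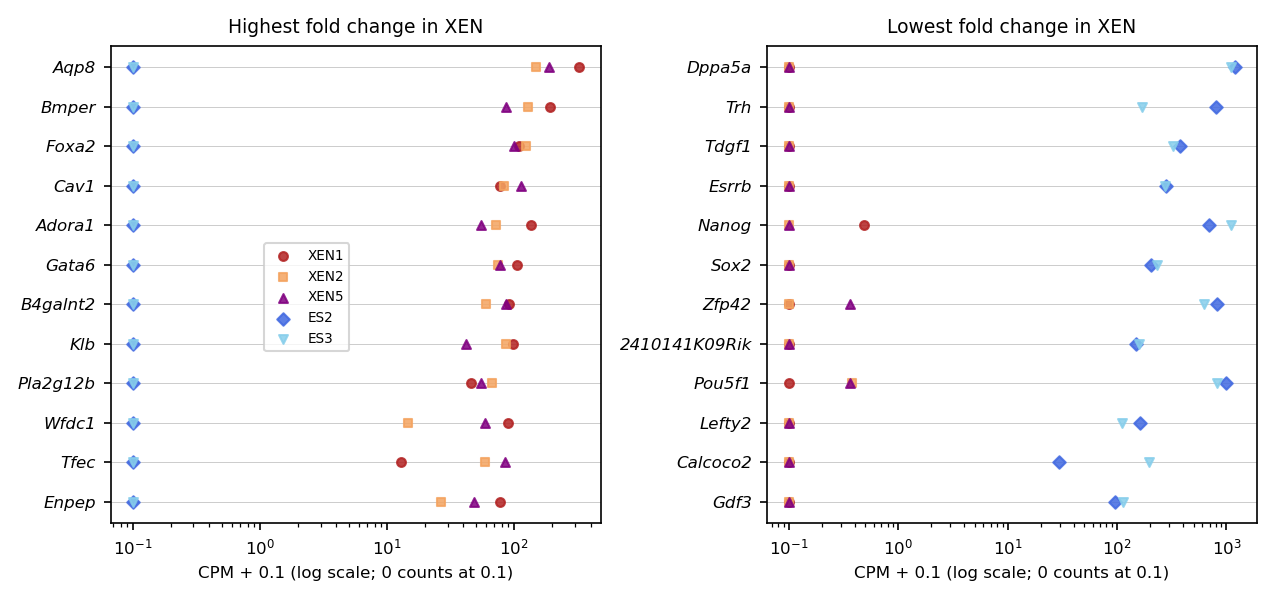
Level of the 12 genes with the highest and the 12 with the lowest fold change in XEN, 1 point per line, on a log axis of CPM + 0.1 where 0 counts plot at 0.1. The ES points of the left panel all lie at 0 counts, and the XEN points of the right panel at 0 or 1 count.

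At the other end, Dppa5a, an RNA-binding protein of early embryos (chr9:78367052-78368177, minus strand), had 1189 and 1095 CPM in ES2 and ES3 and 0 counts in all 3 XEN lines. It was at least 3787-fold lower in XEN (adjusted p = 1.39e-06, edgeR). Tdgf1, the Nodal co-receptor Cripto, fell from 373 and 323 CPM to 0 counts, and Esrrb, an orphan nuclear receptor, from 281 and 277 CPM to 0. The Nodal antagonist Lefty2 fell from 164 and 109.9 CPM and the ligand Gdf3 from 95.4 and 113 CPM, both to 0 counts. The unnamed transcript 2410141K09Rik fell from 150.1 and 157 CPM to 0 counts, at least 509-fold. Each of these 6 genes had 0 counts in every XEN line.

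Trh and Calcoco2 differed most between the ES lines among the 12 lowest genes. Trh, which encodes thyrotropin-releasing hormone, had 795 and 169.9 CPM in ES2 and ES3 and 0 counts in XEN (adjusted p = 0.0150), a call lost with no filter on low counts (adjusted p = 0.161). Calcoco2, an autophagy receptor, had 29.6 and 196 CPM and 0 counts in XEN (adjusted p = 0.0310), and its call was lost without XEN1 or XEN2 (adjusted p up to 0.0592) or with no filter (adjusted p = 0.222). The order of the ES lines was thus opposite for these genes.

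Nanog, Zfp42, Pou5f1 and Sox2 complete the 12 lowest. Nanog, a homeobox factor of the naive state, stood at 698 and 1111 CPM in ES2 and ES3 and had 1, 0 and 0 counts in XEN1, XEN2 and XEN5 (adjusted p = 1.08e-06). Zfp42 (Rex1), a zinc finger protein, stood at 824 and 628 CPM and had 0, 0 and 1 counts in XEN. Sox2 stood at 205 and 231 CPM with 0 counts in XEN, and Pou5f1 at 998 and 813 CPM with 0, 1 and 1 counts. All 4 genes therefore had at most 1 count in any XEN line.

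Because Oct4 and Sox2 bind neighbouring DNA letters, and both were at or near 0 counts in XEN, the bases before the start of the ES markers were searched for the octamer ATTTGCAT and the joint POU and SOX core GCATNACAA, on both strands. The sequences are those of RefSeq (GRCm38.p6), 250 bases before the start, and 13 of the 22 ES markers had one. Among all 32851 such windows 1.60% held the octamer and 0.648% the joint core. Of the 13 markers, 1 held the octamer (Zfp42) and 1 the joint core (Nanog). Both windows are shown because these genes are among the 12 lowest and hold a match, which is in capitals. The last base stands next to the start of transcription. The Nanog window lies at chr6:122707239-122707488 on the plus strand, with the match ending 63 bases before the start, and the Zfp42 window at chr8:43307010-43307259 on the minus strand, with the match ending 178 bases before it.
Nanog: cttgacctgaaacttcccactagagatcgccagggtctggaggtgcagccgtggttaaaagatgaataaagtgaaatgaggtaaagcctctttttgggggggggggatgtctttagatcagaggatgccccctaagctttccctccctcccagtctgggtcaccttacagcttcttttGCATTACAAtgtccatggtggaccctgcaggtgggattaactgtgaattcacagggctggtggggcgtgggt
Zfp42: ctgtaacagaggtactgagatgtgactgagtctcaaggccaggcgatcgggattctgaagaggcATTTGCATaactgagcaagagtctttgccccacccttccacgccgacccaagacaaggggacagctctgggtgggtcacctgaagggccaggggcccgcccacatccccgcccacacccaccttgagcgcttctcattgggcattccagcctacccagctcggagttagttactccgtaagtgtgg
The match is a description of letters and not of binding. The GATA motif AGATAA was in 9.99% of all windows and in 1 of the 17 XEN markers and 3 of the 15 endoderm transcription factors with a window. It was in 0 of the 13 ES markers and 2 of the 18 pluripotency transcription factors with a window. The octamer was also in 1 of the 17 XEN markers and 1 of the 15 endoderm factors, and the joint core in 1 of the 15. Each of these was in 1 of the 18 pluripotency factors. A gene was counted where any of its windows held the motif, so these counts and the shares of windows are unlike measures.

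Endoderm transcription factors were mostly higher in XEN. Of 25 listed, 19 were tested, 15 were higher and 2 lower, with a median log2 fold change of 5.52 (5.31 with genes at 0 counts set to their bound). Without any one line 13 higher and 2 lower calls held. Gata4, the partner of Gata6, stood at 279.8, 173 and 172 CPM in XEN1, XEN2 and XEN5 against 2 and 2 counts in ES2 and ES3. Sox17 stood at 169, 291 and 206 CPM against 1.64 and 0, a log2 fold change of 8.04 (SE 0.62, adjusted p = 9.41e-06, edgeR). Creb3l2, a membrane-bound regulator of secretory capacity, stood at 39.0, 24.5 and 36.2 CPM against 1 and 3 counts. XEN2 was the highest line for Sox17 and the lowest for Creb3l2.

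The 2 lower members were Prdm1 and Nr5a2, named here, like the untested factors that follow, after their values were seen. Prdm1, a repressor also used in visceral endoderm and germ cells, stood at 0.390, 0 and 0.528 CPM in XEN against 18.1 and 18.3 in ES (adjusted p = 0.000447). Nr5a2, an orphan nuclear receptor of liver that also acts on Pou5f1 in ES cells, stood at 0, 0.834 and 0 CPM against 31.3 and 21.0 (adjusted p = 0.000453). Foxa1, Foxa3 and Hhex, factors of visceral and definitive endoderm, were too low to test, with 2, 9 and 9 counts over the 3 XEN lines, and Hnf4g had 0.

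Of 24 pluripotency transcription factors, 20 were lower and 2 higher in XEN. The median log2 fold change was -6.17 (-5.06 with bounds), and 18 lower calls held without any one line. Zscan10, a zinc finger factor, fell from 62.9 and 73.3 CPM to 1 count over the XEN lines. The higher members were Klf4 and Tfe3. Klf4 stood at 84.2, 90.6 and 94.1 CPM in XEN1, XEN2 and XEN5 against 20.6 and 32.3 in ES2 and ES3, 3.38-fold higher (log2 fold change 1.76, SE 0.33, adjusted p = 0.00179), with no overlap. Tfe3, a helix-loop-helix regulator of lysosomes, stood at 53.0, 46.2 and 48.6 CPM against 28.8 and 27.7 (1.74-fold, adjusted p = 0.0248), but the call was lost without XEN1, XEN5, ES2 or ES3 (adjusted p up to 0.115). The list's higher count was 1 without XEN1, XEN5 or ES2. Klf5 stood at 35.5, 27.0 and 28.8 CPM against 13.2 and 31.6 and Sall4 at 71.7, 169 and 128 against 176 and 171, and neither passed (adjusted p = 0.340 and 0.295). Tfe3, Klf5 and Sall4 were named after their values were seen.

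The 2 ES markers that did not pass were Lin28a and Fbxo15. Lin28a, which blocks let-7 maturation, stood at 50.7, 182 and 99.6 CPM in XEN1, XEN2 and XEN5 and 90.9 and 37.0 in ES2 and ES3, so the groups overlapped (adjusted p = 0.264). Its relative Lin28b fell from 38.7 and 21.8 CPM in ES to 1.56, 2.22 and 5.81 in XEN (9.08-fold, adjusted p = 0.00215). Fbxo15, a ubiquitin ligase subunit, stood at 83.0, 42.0 and 88.8 CPM against 58.4 and 135 (adjusted p = 0.442). Trim71, a repressor of messenger RNAs in stem cells, was 1.90-fold lower, with 59.6, 82.9 and 43.9 CPM against 118 and 118 (adjusted p = 0.0395), and the call was lost without XEN1, XEN5, ES2 or ES3 (adjusted p up to 0.137) or with sex as a term (adjusted p = 0.0539).

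The 10 genes of highest CPM among those called at least 4-fold higher were Col4a2, Col4a1, Lama1, Lamb1, Lamc1, Plod2, Podxl, P4hb, Thbs1 and Sparc, a choice that favours long transcripts since CPM do not correct for length. Col4a2 and Col4a1, the chains of type IV collagen that lie side by side on chromosome 8, stood at 9177, 1955 and 2998 and at 5308, 1059 and 4373 CPM in XEN1, XEN2 and XEN5. In ES2 and ES3 they had 6.99 and 38.2 and 10.7 and 23.0 CPM, giving 207-fold and 211-fold higher levels (adjusted p = 0.00463 and 0.00122). XEN2 was the lowest and XEN1 the highest XEN line for both. The laminin chains Lama1, Lamb1 and Lamc1 were 93.0-fold, 192-fold and 17.2-fold higher, and XEN1 had the highest level of each. Lama1, for example, stood at 4959.8, 2059 and 2408 CPM in XEN and 21.8 and 45.6 in ES. The collagen-modifying enzymes varied less between the lines. Plod2, a lysyl hydroxylase, stood at 1293, 1879.8 and 1732 CPM against 48.5 and 46.4 (34.4-fold) and P4hb, protein disulfide isomerase, at 1427, 933 and 1183 against 206 and 199 (5.83-fold). Thbs1, the matrix protein thrombospondin, stood at 936, 1239 and 1196 CPM against 1.64 and 9.35, Podxl, a sialomucin, at 1362, 1095 and 1121 against 27.6 and 66.3, and Sparc at 1355, 602 and 1275 against 22.6 and 40.5.

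**Figure D2:**
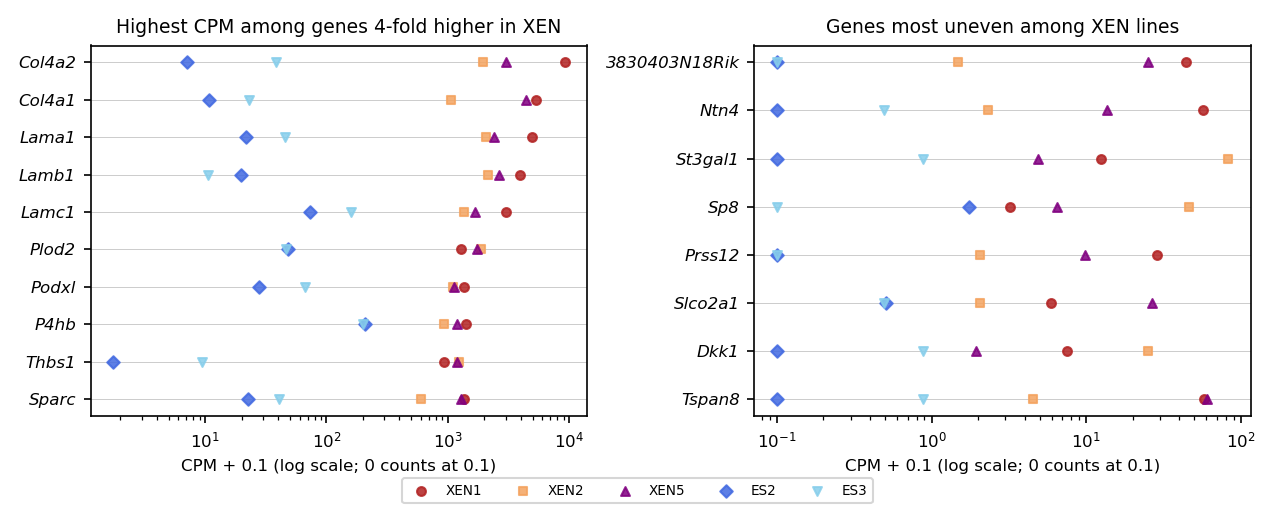
Level of the 10 genes of highest CPM among those at least 4-fold higher in XEN (left) and of the 8 called genes with the widest range among XEN lines (right), 1 point per line, on a log axis of CPM + 0.1. All XEN points of the left panel lie above the ES points, and in the right panel the XEN lines spread over more than 10-fold.

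Genes of highest CPM among those at least 4-fold lower in XEN included genes outside the pluripotency network. Hmgb2, a chromatin protein of dividing cells, stood at 126, 173 and 228 CPM in XEN against 851 and 691 in ES, 4.38-fold lower (SE of log2 0.26, adjusted p = 0.000132). Msh6, a DNA mismatch repair protein, stood at 114, 102 and 127 CPM against 544 and 495 (4.54-fold), and Tfcp2l1, a factor of the naive state, at 44.8, 27.0 and 47.0 against 589.7 and 554 (14.4-fold). Apoe, a lipid carrier, stood at 12.5, 88.4 and 10.3 CPM, highest in XEN2, against 792 and 456, and the X-linked Bex1 at 66.6, 155 and 75.0 against 284 and 740.5. The calls of these last genes were lost without XEN1, ES2 or ES3 and, for Bex1, also without XEN5 (adjusted p up to 0.108 and 0.230). With no filter on low counts both were lost as well (adjusted p = 0.0660 and 0.110), and with sex as a term Bex1 was (adjusted p = 0.0831).

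The machinery that moves proteins into and out of the endoplasmic reticulum was higher in XEN. All 37 listed genes were tested, 26 (70.3%) were higher and 0 lower, with a median log2 fold change of 1.32. Without ES2 the count was 17, and 17 calls held without any one line. For entry, Sec61a1, the channel pore, stood at 632, 762 and 699 CPM in XEN1, XEN2 and XEN5 against 157 and 202 in ES2 and ES3 (3.88-fold, adjusted p = 0.000100), and Srprb, a subunit of the signal recognition particle receptor, at 153, 154 and 133 against 20.6 and 39.4 (4.89-fold). For sorting, the cargo receptor Surf4 stood at 452, 287 and 332 CPM against 55.1 and 71.7 (5.62-fold). Kdelr3, a receptor that returns escaped chaperones (chr15:79516411-79527739, plus strand), stood at 421, 372 and 370.2 CPM against 6.17 and 3.90, 76.7-fold higher (log2 fold change 6.26, SE 0.33, adjusted p = 1.39e-06). Its relatives Kdelr1 and Kdelr2, named after their values were seen, were 3.73-fold and 5.05-fold higher. Xbp1, the transcription factor that expands this machinery, stood at 302, 208 and 354 CPM against 45.6 and 62.4 (5.33-fold). Sec23b and Sec24b, coat subunits whose relatives Sec23a and Sec24d rose 2.87-fold and 9.97-fold, stood at 76.0, 101 and 113 against 139.8 and 103 and at 17.5, 9.73 and 12.7 against 7.40 and 21.4 CPM and did not pass (adjusted p = 0.349 and 0.841). These 4 genes were also chosen after their values were seen.

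Heparan sulfate chains bind growth factors at the cell surface and in basement membranes. Of 31 proteoglycan and synthesis genes 30 were tested, and 17 (56.7%) were higher and 0 lower, with a median log2 fold change of 1.21. Without ES2, 7 were higher. Chain polymerisation was represented by Ext1, at 172, 235 and 133 CPM in XEN against 34.1 and 31.2 in ES (5.52-fold, adjusted p = 0.000253), and Extl2, at 17.1, 21.7 and 27.7 against 6.58 and 3.51. Among sulfotransferases, Hs3st1 stood at 187, 139 and 88.8 CPM against 0 and 2 counts in ES (adjusted p = 8.69e-06), and the X-linked Hs6st2 at 60.8, 23.9 and 26.4 CPM against 1.64 and 0.779 (29.6-fold). Papss1, which makes the sulfate donor, was 4.41-fold higher, at 47.2, 44.8 and 43.3 CPM against 9.46 and 10.9. Of the core proteins, Gpc6 was higher, at 159, 28.6 and 64.2 CPM against 6 counts in ES. Gpc3 stood at 19.5, 84.2 and 8.98 CPM against 17.3 and 17.1 and Sdc1 at 44.4, 40.9 and 63.7 against 41.5 and 39.8, and neither passed (adjusted p = 0.415 and 0.738). The 3 core proteins were named after their values were seen.

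**Figure D3:**
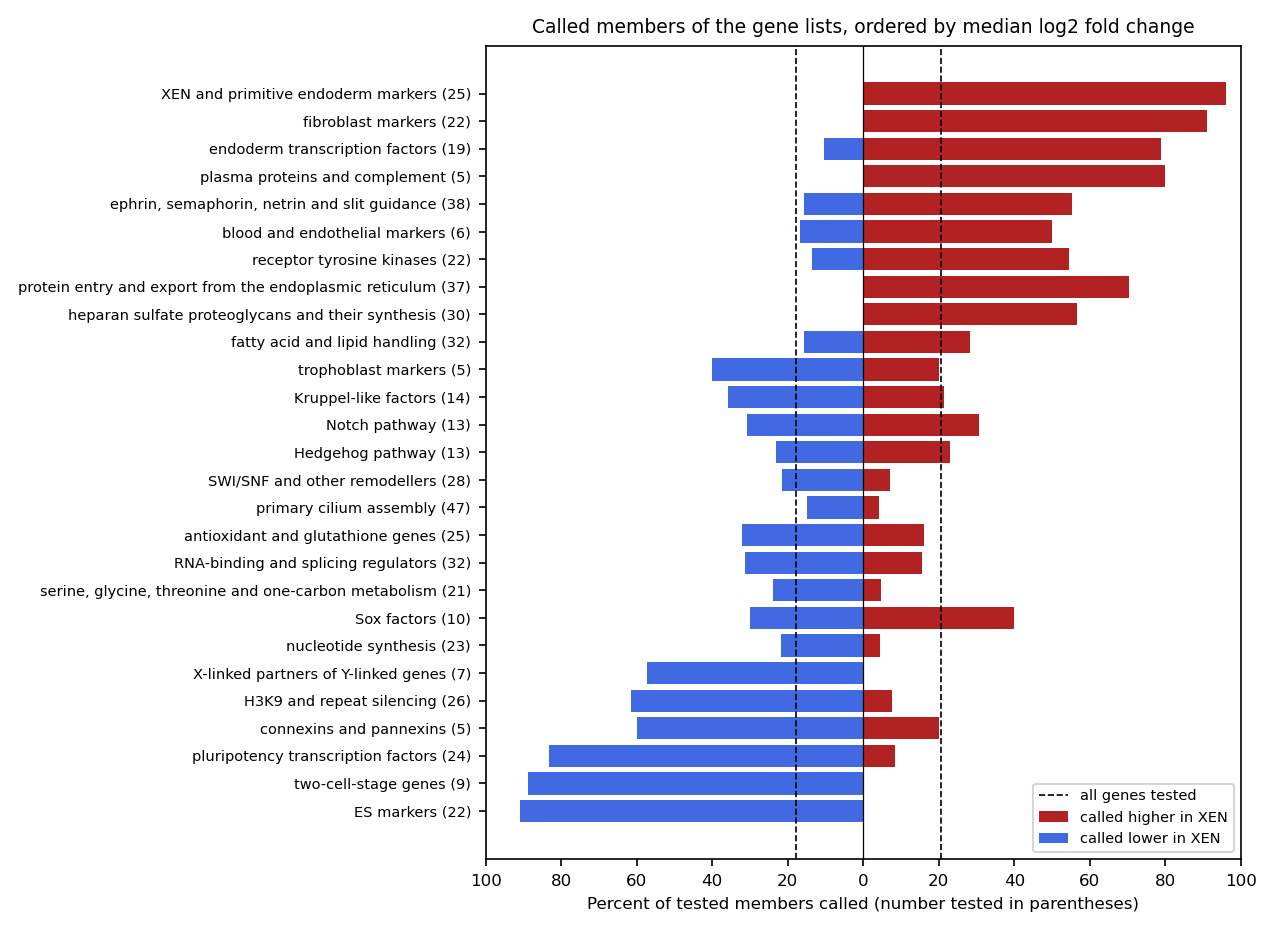
Percent of each list's tested members that were called higher (right of 0) or lower (left of 0) in XEN, for lists with at least 5 tested genes. Dashed lines mark the 20.7% and 17.8% of all genes tested, which the endoplasmic reticulum list passes on the higher side and the H3K9 and repeat silencing list on the lower side.

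Receptor tyrosine kinases, the receptors of many growth factors, changed in both directions. Of 33 listed, 22 were tested, and 12 were higher and 3 lower (1 lower without ES3), and 8 higher calls held without any one line. The median log2 fold change was 1.91 (1.88 with bounds). Within the FGF receptors the direction differed by member. Fgfr1 stood at 2.34, 1.67 and 1.59 CPM in XEN1, XEN2 and XEN5 against 23.4 and 43.7 in ES2 and ES3, 18.0-fold lower (log2 fold change -4.17, SE 0.50, adjusted p = 0.000123). Fgfr3 stood at 66.6, 108 and 41.5 CPM against 0.411 and 1.17, 86.1-fold higher (adjusted p = 2.80e-05), and Fgfr4, a partner of Klb, at 42.9, 22.8 and 23.0 against 1.23 and 2.73 (14.5-fold). Fgfr2 was too low to test, with 32 counts in XEN and 5 in ES. Pdgfra, a receptor that marks primitive endoderm, stood at 83.4, 67.0 and 53.4 CPM against 1.23 and 0.390 (80.6-fold), and Kit, the stem cell factor receptor, at 258, 251 and 223 against 20.6 and 40.1 (8.02-fold). The other lower members were Erbb3 and Ror2, at 2.34, 2.22 and 1.06 against 10.3 and 47.9 and 3.51, 1.11 and 0.793 against 9.46 and 13.3 CPM. Both calls were lost without ES3, and that of Ror2 also without ES2 (adjusted p up to 0.0805 and 0.104), and both genes were named, with Fgfr2, after their values were seen.

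Guidance ligands and receptors, which steer migrating cells, held many changed genes. Of 55 listed, 38 were tested, and 21 were higher and 6 lower, with a median log2 fold change of 2.04 (1.98 with bounds), and 12 were higher without ES2. The slit receptor Robo2 stood at 49.1, 27.5 and 42.5 CPM in XEN and had 0 counts in ES (at least 66.2-fold, adjusted p = 2.03e-05), and the ephrin receptor Ephb3 stood at 74.0, 119.6 and 68.2 CPM against 6.99 and 5.07 (14.4-fold). In the opposite direction, the ligand Ntn1 stood at 50.2 and 27.7 CPM in ES2 and ES3 and had 1 count over the XEN lines. Its receptor Neo1 fell 6.35-fold, from 92.5 and 82.2 to 14.8, 17.8 and 8.72 CPM, and the ephrin receptor Epha4 8.23-fold, from 37.8 and 74.0 to 4.29, 8.06 and 7.66 CPM.

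The Hedgehog and Notch pathways, which carry signals between neighbouring cells, changed in both directions. Of 15 Hedgehog genes 13 were tested, and 3 (23.1%) were higher and 3 lower, with a median log2 fold change of -0.11, shares near the background. The ligand Ihh stood at 23.8, 23.6 and 12.2 CPM in XEN against 1.23 and 0.779 in ES (19.0-fold higher, adjusted p = 0.000893). The transcription factors at the other end of the pathway were lower: Gli1 had 0, 1 and 0 counts in XEN1, XEN2 and XEN5 against 34 and 32 in ES2 and ES3 (adjusted p = 0.000280), and Gli2 had 1, 1 and 1 against 29 and 19 (adjusted p = 0.00107). Smo, the signal transducer, and Sufu, an inhibitor, were 2.85-fold and 4.15-fold higher, at 74.8, 65.1 and 52.3 against 23.0 and 21.8 CPM and 9.74, 7.78 and 5.55 against 2.47 and 1.17 CPM. Without ES3 both calls were lost, as was that of Sufu without XEN1, which left 1 higher member without ES3 (adjusted p up to 0.0538 and 0.140).

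Of 21 Notch genes 13 were tested, and 4 were higher and 4 lower (median log2 fold change -0.10), with 2 higher without ES2 and 2 lower without ES3. Rbpj, the DNA-binding partner of Notch, stood at 14.4, 14.5 and 13.2 CPM against 58.8 and 74.8 in ES, 4.76-fold lower (adjusted p = 7.61e-05), and the endothelial-type receptor Notch4 at 0.390, 1.11 and 0 against 9.46 and 19.9. Hes1, a target repressor, was 4.29-fold higher, at 102, 97.6 and 92.7 CPM against 17.7 and 27.7, and the coactivator Maml1 3.10-fold higher, at 107, 63.1 and 72.1 against 21.0 and 30.8. Of 16 gap junction genes 5 were tested, with 1 higher, 3 lower and a median log2 fold change of -1.59. Gjc1, a connexin, had 1, 0 and 2 counts in XEN against 56 and 81 in ES and was lower (adjusted p = 7.93e-05). Gja1, connexin 43, stood at 102, 149 and 208 CPM against 53.0 and 56.5 (2.80-fold higher, adjusted p = 0.0242), and its call, the 1 higher call of the list, was lost without XEN5, ES2 or ES3 (adjusted p up to 0.136).

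Genes listed for histone H3 lysine 9 methylation and the silencing of repeats were mostly lower in XEN. Of 26 tested 16 (61.5%) were lower and 2 higher, with a median log2 fold change of -1.23, and 13 lower calls held without any one line. Morc1, a repressor of transposons (chr16:48431237-48630900, plus strand), stood at 120.5 and 95.5 CPM in ES2 and ES3 and had 1 count over the XEN lines (adjusted p = 2.53e-06). Zfp57, which guards imprints, fell 16.0-fold, from 79.0 and 80.3 to 3.51, 5.84 and 5.28 CPM, and Rif1, a regulator of replication timing, 6.68-fold, from 417 and 445 to 52.2, 85.1 and 56.0 CPM. The X-linked remodeller Atrx fell 5.31-fold, from 159.5 and 222 to 37.0, 32.5 and 38.3 CPM. Setdb1, the methyltransferase that acts with Trim28, was 2.18-fold lower and Trim28 3.39-fold lower.

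The 2 higher members were Suv39h1 and Lmna. Suv39h1, an X-linked H3K9 methyltransferase, stood at 103, 48.7 and 69.2 CPM in XEN1, XEN2 and XEN5 against 3.70 and 6.63 in ES2 and ES3, 14.1-fold higher (log2 fold change 3.82, SE 0.44, adjusted p = 9.21e-05). Its relative Suv39h2 went the other way, from 28.4 and 29.2 CPM in ES to 5.85, 12.0 and 11.6 in XEN (adjusted p = 0.00780). Lmna, lamin A, stood at 253, 201 and 252 CPM against 28.4 and 22.6 (9.22-fold higher, adjusted p = 1.35e-05), while the lamin B receptor Lbr was 2.32-fold lower. Ehmt2, another H3K9 methyltransferase, stood at 124, 115 and 90.4 CPM against 109 and 110.3 (adjusted p = 0.997). Setdb1, Trim28, Suv39h1, Suv39h2, Lbr and Ehmt2 were named after their values were seen.

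Genes of the cleavage-stage embryo that flicker on in rare ES cells had next to no counts in XEN. Summed over the list, the level was 0.390, 0.278 and 0.528 CPM in XEN1, XEN2 and XEN5 and 112 and 208 in ES2 and ES3. Members could thus pass the count filter only through lines other than XEN, and their share called lower is no separate evidence. Of 22 listed, 9 were tested and 8 were lower (median log2 fold change -7.38, or -5.34 with bounds), of which 4 held without any one line, and 16 of the 20 listed genes that have a row had 0 counts in all 3 XEN lines. Of the 20, 19 had counts in these lines, so 1 of the 16 had 0 counts in ES too. Over all genes, 1953 of the 16756 with counts in these lines had counts in ES only. Zscan4c had 27 and 34 counts in ES2 and ES3 and 0 in XEN (at least 40.4-fold, adjusted p = 0.000983), and Pramef12 had 49 and 86 against 1 in XEN. Zscan4 copies are near-identical, so the split of reads between them is uncertain. Of 30 chromatin remodellers 28 were tested, and 2 were higher and 6 lower (2 lower without ES2 or without ES3, and 0 higher without ES2), with a median log2 fold change of -0.23. Actl6a, a subunit of remodelling complexes, fell 3.38-fold, from 236 and 195 CPM to 49.9, 75.9 and 65.0 (adjusted p = 0.000409). Smarca2, 1 of the alternative ATPases, stood at 23.4, 6.95 and 17.2 CPM against 0.411 and 1.56 (15.2-fold higher, adjusted p = 0.00488), and its call was lost without ES2 (adjusted p = 0.0540).

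The lists for making nucleotides and handling serine and glycine had medians below 0 and lower counts near the background. For threonine, serine and glycine metabolism with folate, 5 of 21 tested genes (23 listed) were lower and 1 higher, with a median log2 fold change of -0.56. The lower count was 3 without XEN1, XEN5 or ES3, 8 without XEN2 and 2 without ES2, and the higher count 0 without XEN1, XEN2, ES2 or ES3 and 2 without XEN5. Tdh, the threonine dehydrogenase that mouse ES cells depend on, stood at 48.1 and 30.8 CPM in ES2 and ES3 and had 0, 4 and 0 counts in XEN1, XEN2 and XEN5 (adjusted p = 0.000358), and Amt, of the glycine cleavage system, had 40 and 66 counts in ES against 0, 3 and 2 in XEN (adjusted p = 0.000405). Phgdh, the entry enzyme of serine synthesis, stood at 190.2, 261 and 166 CPM against 93.8 and 83.4 (2.32-fold higher, adjusted p = 0.0291), a call lost without XEN1, XEN2, ES2 or ES3 (adjusted p up to 0.143). Of 24 nucleotide synthesis genes 23 were tested, and 5 were lower and 1 higher, with a median of -0.61. Pfas, of purine synthesis, fell 3.04-fold, from 169 and 127 to 36.2, 66.7 and 42.3 CPM (adjusted p = 0.00130). The lower count was 9 without XEN2 and 3 without ES2, and the 1 higher call, Impdh1 (2.53-fold), was lost without ES2 (adjusted p = 0.0537).

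Lipid genes were called in both directions at shares near the background (28.1% higher and 15.6% lower), 9 of 32 tested (34 listed) higher and 5 lower (2 lower without ES2 and 3 without ES3), with a median log2 fold change of 0.57. Fatty acid binding protein Fabp3 stood at 468, 577 and 650.2 CPM in XEN against 69.5 and 110.3 in ES (6.28-fold higher, adjusted p = 8.26e-05), and the lysosomal lipase Lipa at 84.2, 48.4 and 52.6 against 4.52 and 4.68 (13.3-fold). The elongases split: Elovl1, which acts on very long chains, was 5.28-fold higher (76.0, 57.6 and 57.3 against 11.9 and 12.1 CPM) and Elovl6, which acts on shorter ones, 7.58-fold lower (21.4, 24.2 and 23.5 against 173 and 178 CPM). Of 28 antioxidant and glutathione genes 25 were tested, and 8 were lower and 4 higher (median -0.34), with 2 higher without ES2 and 1 without ES3. Nqo1, a quinone reductase and target of Nrf2, fell 27.7-fold, from 56.3 and 50.7 to 1.56, 1.11 and 2.91 CPM (adjusted p = 0.000172), and the mitochondrial dismutase Sod2 5.15-fold, from 288 and 227 to 53.8, 43.4 and 53.1 CPM. Gsta4, a transferase for lipid aldehydes, fell 4.49-fold, while Gpx8, a peroxidase of the endoplasmic reticulum, was 6.61-fold higher, at 24.9, 17.5 and 25.6 CPM against 2.88 and 3.90.

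Of 32 RNA-binding and splicing regulators 5 were higher and 10 (31.2%) lower, with a median log2 fold change of -0.46, and without ES2 the counts were 2 and 5 (3 higher without ES3). Rbpms2 fell 11.2-fold, from 68.3 and 60.8 to 5.46, 4.73 and 6.87 CPM (adjusted p = 1.21e-05), and the splicing regulator Mbnl2 was 5.54-fold higher, at 118, 97.6 and 103 against 14.0 and 24.2 CPM (adjusted p = 0.000179). Of 52 genes for building primary cilia 47 were tested, and 2 were higher and 7 lower, with a median of -0.29, and 1 and 4 without ES2 and the same counts without ES3. Cc2d2a, of the ciliary transition zone, fell 7.84-fold, from 21.8 and 25.7 to 2.73, 2.78 and 3.43 CPM (adjusted p = 0.000537). Of 32 plasma protein and complement genes 5 had enough counts to test and 4 were higher (2 without ES2; median log2 fold change 3.51), led by the protease inhibitors Serpinf1, with 26, 47 and 59 counts in XEN against 2 and 1 in ES, and Serping1, 11.4-fold higher at 54.2, 20.0 and 16.9 CPM against 2.06 and 3.12. The albumin and apolipoprotein genes Alb, Apoa1, Apoa2 and Apoa4, named after their values were seen, had 0 counts in all 5 lines.

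Markers of trophoblast, germ layers, blood and endothelium had mixed levels. Of 19 trophoblast markers 5 were tested, 1 was higher and 2 lower (median log2 fold change 0.28), and Cdx2, the trophoblast regulator, had 1 count in XEN and 1 in ES. The summed level was 60.0, 125 and 81.6 CPM in XEN1, XEN2 and XEN5 and 58.4 and 103 in ES2 and ES3, which overlapped. Eomes, a T-box factor, had 1, 1 and 0 counts in XEN against 44 and 17 in ES (adjusted p = 0.000489). Tead4, a partner of Yap, was 3.51-fold higher, at 28.8, 68.7 and 48.9 CPM against 10.7 and 17.1 (adjusted p = 0.00724), but not without ES2 (adjusted p = 0.0785), and Tfap2a, with 1, 0 and 0 counts against 6 and 4, was not called without XEN2, XEN5, ES2 or ES3 (adjusted p up to 0.127) or with the XEN and ES libraries alone. The count of lower trophoblast markers was 4 without ES2 and 1 without XEN2, XEN5 or ES3. Of 15 germ layer markers 4 were tested, and Sox1 and Neurod1 were lower, each with 0 counts in XEN against 12 and 26 and 12 and 12 in ES2 and ES3. Sox1 was not called by DESeq2 (adjusted p = 0.193) and was too low to test without ES3, and Neurod1 without ES2 or ES3. Summed, the germ layer markers reached 30.4, 24.7 and 40.2 CPM in XEN1, XEN2 and XEN5 and 155 and 176 in ES2 and ES3. Of 13 blood and endothelial markers 6 were tested, and 3 were higher and 1 lower, and the sum was 198, 71.7 and 207 CPM in XEN1, XEN2 and XEN5 and 34.5 and 52.2 in ES2 and ES3. Tek, an angiopoietin receptor, stood at 102, 47.8 and 114 CPM against 7.40 and 12.1 (8.97-fold higher, adjusted p = 0.00266). Pecam1, an adhesion protein, had 0, 0 and 3 counts in XEN against 31 and 69 in ES (adjusted p = 0.000997, but 0.0597 with DESeq2), and the leukocyte gene Ptprc had 1 count over the 5 lines.

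Of 17 Kruppel-like factors 14 were tested, and 3 were higher and 5 lower (3 lower without XEN5, ES2 or ES3), with a median log2 fold change of -0.04. Klf2, a factor of the naive state, fell 26.6-fold, from 129.5 and 127 to 5.46, 5.84 and 3.17 CPM (adjusted p = 9.41e-06), and Klf12 had 0, 0 and 1 counts against 43 and 24 in ES. Klf6 was 7.06-fold higher, at 277, 439 and 268 CPM against 30.8 and 62.0 (adjusted p = 0.000244). Of 19 Sox factors 10 were tested, and 4 were higher and 3 lower (median -0.56), and 2 were higher without XEN1, XEN5, ES2 or ES3. Sox7, the close relative of Sox17, stood at 35.9, 62.6 and 71.1 CPM against 0.411 and 1.95 (45.9-fold higher), and Sox15 had 1, 0 and 3 counts against 35 and 20 in ES. Of 39 Hox genes 2 were tested and 0 called. Hoxd13 had 4, 13 and 11 counts in XEN1, XEN2 and XEN5 and 19 and 11 in ES2 and ES3, and Hoxc13 6, 16 and 19 and 3 and 18 (adjusted p = 0.190 and 0.962).

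MicroRNAs are cut from longer host transcripts, and these libraries count the hosts and not the mature forms. Mir22hg (chr11:75461539-75466676, plus strand) had 43, 52 and 72 counts in XEN1, XEN2 and XEN5 against 3 and 3 in ES2 and ES3 and was 13.5-fold higher (log2 fold change 3.76, SE 0.52, adjusted p = 0.000316). Mir17hg (chr14:115042879-115046727, plus strand), the host of the miR-17 to miR-92 cluster, had 15, 35 and 77 counts against 116 and 65 and was 3.00-fold lower (adjusted p = 0.0375), but the call was lost without XEN1, XEN2 or ES2 (adjusted p up to 0.286). Mir124a-1hg had 0 counts in XEN against 25 and 20 in ES (adjusted p = 0.00173), and Mirg, on chromosome 12, 0, 8 and 2 against 48 and 56 (adjusted p = 0.00124). Mir290a, of a cluster typical of ES cells, had 0, 1 and 1 counts in XEN and 10 and 10 in ES and was too low to test. The guide strands that RefSeq (GRCm38.p6) places inside the 2 hosts that changed in opposite directions are printed to show what each host can yield, with the seed, bases 2 to 8, in capitals.
miR-17-5p (Mir17hg): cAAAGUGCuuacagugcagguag
miR-20a-5p (Mir17hg): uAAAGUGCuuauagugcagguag
miR-18a-5p (Mir17hg): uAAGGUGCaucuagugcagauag
miR-19a-3p (Mir17hg): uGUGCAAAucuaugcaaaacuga
miR-19b-3p (Mir17hg): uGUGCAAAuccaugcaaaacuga
miR-92a-3p (Mir17hg): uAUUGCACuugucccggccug
miR-22-3p (Mir22hg): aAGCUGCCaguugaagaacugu
The seed AAAGUGC is shared by miR-17-5p and miR-20a-5p and GUGCAAA by miR-19a-3p and miR-19b-3p. The 7-base seed of miR-22-3p matches none of those printed for the Mir17hg cluster.

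The lines of each group resembled each other more than those of the other group. Across the 10895 tested genes Spearman's rho of CPM was 0.920 to 0.941 between XEN lines, 0.942 between ES2 and ES3 and 0.625 to 0.701 between a XEN and an ES line, given as a description since genes are not independent. Of 6156 genes with at least 20 CPM in a XEN line, 191 spanned at least 4-fold on the CPM + 1 scale. In these genes the line farthest from the other two was XEN2 where it was low in 73 and high in 30, XEN1 low in 14 and high in 37, and XEN5 low in 17 and high in 20. Between ES2 and ES3, 49 of 5686 genes differed at least 4-fold, 32 of them higher in ES3. The XEN lines number 3 and the ES lines 2, so these counts cannot be set against each other.

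Among genes higher in XEN, 8 were chosen for the widest range across the XEN lines. Ntn4, a netrin of basement membranes, stood at 57.3, 2.22 and 13.5 CPM in XEN1, XEN2 and XEN5, and Tspan8, a tetraspanin, at 57.7, 4.45 and 60.0 CPM, both lowest in XEN2. St3gal1, a sialyltransferase, stood at 12.5, 83.1 and 4.76 CPM, and Sp8, a zinc finger factor, at 3.12, 46.4 and 6.34 CPM, both highest in XEN2. Dkk1, a Wnt antagonist, was also highest in XEN2, at 7.40, 25.0 and 1.85 CPM, while Slco2a1, a prostaglandin transporter, was highest in XEN5, at 5.85, 1.95 and 26.7 CPM. Prss12, a serine protease, and 3830403N18Rik stood at 28.8, 1.95 and 9.78 and 44.4, 1.39 and 25.1 CPM, highest in XEN1. The 8 genes had at most 4 counts over the ES lines, and none kept its call when ES2 or ES3 was left out. The highest adjusted p of these fits was 0.164 for Ntn4 and 0.207 for Dkk1. With no filter on low counts the calls of all but Prss12 were lost. With sex as a term those of 3830403N18Rik, Slco2a1, Dkk1 and Tspan8 were lost, and with the XEN and ES libraries alone those of 3830403N18Rik, Ntn4, St3gal1 and Sp8. DESeq2 did not call Sp8 (adjusted p = 0.0607), nor did unstranded counts Slco2a1 (adjusted p = 0.0691).

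Whole chromosomes differed in their median level. For 7397 tested genes with at least 10 CPM on average, the log2 ratio of each line to the ES mean was taken on the CPM + 1 scale and centred on the autosomal median of that line. Chromosome 8 was at -0.57, -0.56 and -0.19 in XEN1, XEN2 and XEN5 over 422 genes, and 68.5%, 72.3% and 59.0% of these genes lay below 0. Chromosome 19 was at 0.82, 0.25 and 0.53 over 262 genes. Among the others that lay to the same side in all 3 lines were chromosome 13, at -0.27, -0.17 and -0.31, and chromosome 10, at 0.16, 0.14 and 0.09. On X the XEN lines lay at -0.39, -0.30 and -0.30. There ES2, labelled male, lay at -0.35 and ES3, labelled female, at 0.35, so the XEN lines were near ES2. Other shifts were found in only some of the lines. Chromosome 6 was at 0.57 in XEN2 and 0.51 in XEN5 but 0.05 in XEN1, and chromosome 14 at 0.43 in XEN1 and 0.44 in XEN5 but 0.02 in XEN2. XEN2 alone had chromosomes 15 and 16 at 0.48 and 0.43, where XEN1 and XEN5 lay between -0.11 and 0.07, and XEN5 had chromosome 12 at 0.38. Between ES2 and ES3 the widest autosomal difference was 0.10, on chromosome 11. Because the ratio is taken to the ES mean, it does not show which group shifted. Chromosome number was not measured, and its part in these values was not tested.

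**Figure D4:**
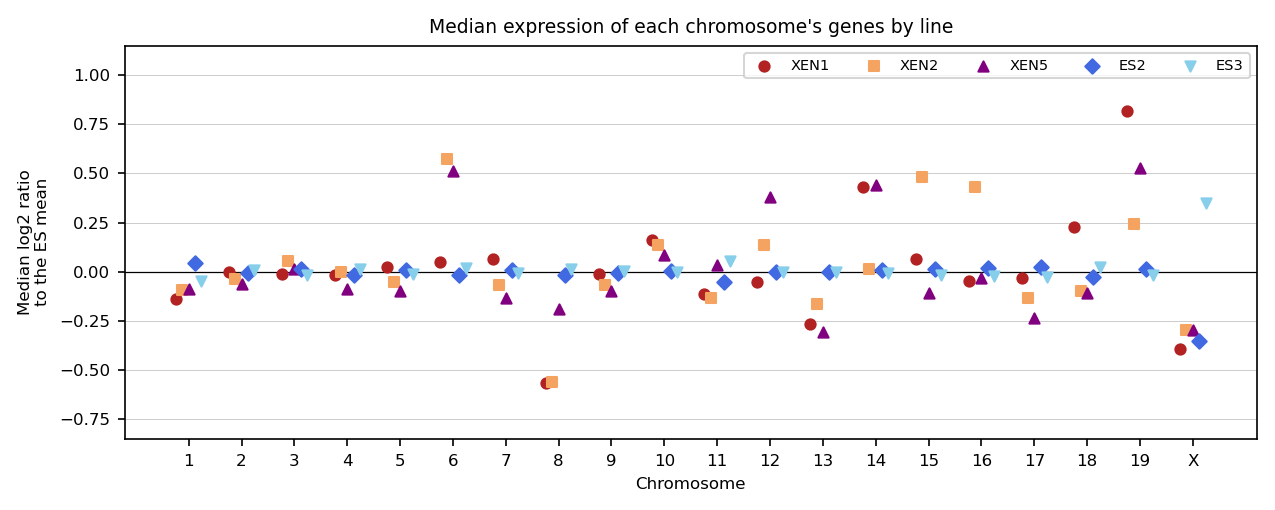
Median log2 ratio to the mean of the ES lines for the genes of each chromosome, 1 point per line, centred on the autosomal median. The ES points mirror each other around 0 by construction, so a shift shared by both ES lines cannot be seen. Relative to the ES mean, XEN1 lay at -0.57 on chromosome 8 and 0.82 on chromosome 19.

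Calls were counted by chromosome. On chromosome 8, 82 of 584 tested genes (14.0%) were higher and 169 (28.9%) lower in XEN, on chromosome 19, 104 of 355 (29.3%) were higher and 25 (7.04%) lower, and on chromosome 6, 150 of 476 (31.5%) were higher and 52 (10.9%) lower. With each line's chromosome medians removed in the fit, an alternative chosen after seeing the data, 2364 genes were higher and 1991 lower in all. Since that fit centres every chromosome, more even shares follow from its construction. They were 22.6% higher and 17.1% lower on chromosome 8, 20.6% and 14.1% on chromosome 19 and 23.3% and 21.4% on chromosome 6. Col4a1 and Col4a2 lie on chromosome 8 and rose against its median. Of the genes named above, Gja1, Smo, Sufu, Sp8, Dkk1, and Tspan8 lost their call in that fit, which left 1 Hedgehog gene higher.

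The X chromosome separated the ES lines. X-linked genes took 2.62% of counts other than Rn45s in ES2, labelled male, and 4.09% in ES3, labelled female (95% exact binomial intervals 2.59% to 2.64% and 4.06% to 4.12%, counting error only). In XEN1, labelled female, the share was 2.87%, against 3.15% and 2.91% in the male lines XEN2 and XEN5. Over 264 X-linked genes the median log2 ratio of ES3 to ES2 was 0.70, a ratio of 1.62, and 87.5% of the genes were higher in ES3, against 50.0% of 7133 autosomal genes. The same median for XEN1 against the mean of XEN2 and XEN5 was -0.02, with 49.6% of genes higher. Each group has 1 female line, and the difference between the groups in this ratio was not tested.

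Xist, the RNA that coats the inactive X (chrX:103460366-103483254, minus strand), stood at 659, 9.45 and 8.72 CPM in XEN1, XEN2 and XEN5 and 0.411 and 14.0 in ES2 and ES3, so the female XEN line stood apart (XEN against ES adjusted p = 0.315). Tsix, its antisense partner, stood at 18.1 and 24.2 CPM in ES and had 2, 0 and 1 counts in XEN (adjusted p = 0.000204), and these counts are by strand. Y-linked genes summed to 22 counts in XEN1, 695 in XEN2, 1351 in XEN5, 671 in ES2 and 1 in ES3, so the male lines were high. The 22 counts in XEN1 lay above the 1 count of ES3, and their source was not tested. Ddx3y, an RNA helicase, had 11, 418 and 672 counts in the XEN lines and 236 and 0 in ES.

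Of 7 X-linked genes with a partner on the Y, 4 were lower in XEN. Usp9x, a deubiquitinase, stood at 155, 131 and 128 CPM in XEN1, XEN2 and XEN5 against 227 and 495 in ES2 and ES3 (2.62-fold lower, adjusted p = 0.00343), and Uba1, a ubiquitin-activating enzyme, at 183, 193 and 151 against 264 and 418 (1.94-fold). The histone demethylases Kdm5c and Kdm6a stood at 168, 106 and 104 against 179.7 and 285 and at 79.5, 85.6 and 64.5 against 123 and 189 CPM (adjusted p = 0.0281 and 0.0456). ES3, labelled female, was the highest of the 5 lines for all 4 genes. Without ES3 none of the 4 was called (adjusted p up to 0.0730, 0.154, 0.284 and 0.305 over the fits without a line), and 2 were called without XEN2 or without XEN5. Kdm5c and Kdm6a also lost their call with the chromosome medians removed, and Kdm6a with sex as a term (adjusted p = 0.0520).

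**Figure D5:**
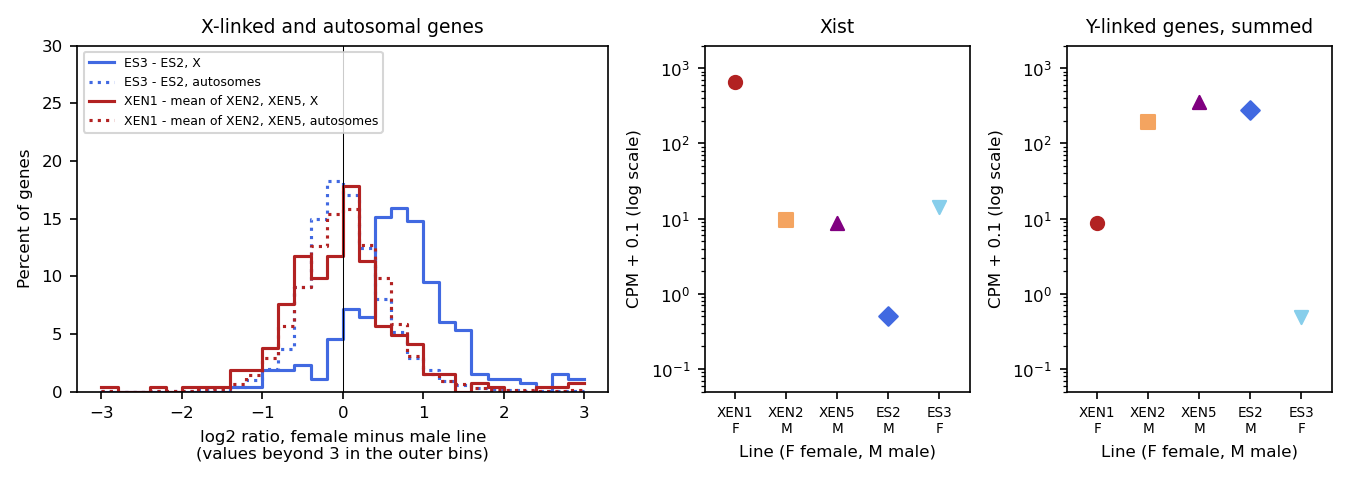
Left, share of X-linked and autosomal genes by log2 ratio of the female to the male line or lines, in steps of 0.2; middle and right, Xist and the summed Y-linked genes by line with the labelled sex, on a log axis of CPM + 0.1. The X-linked curve of the ES lines is shifted to a median of 0.70 and that of the XEN lines sits at -0.02.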

How the data were processed

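Total RNA depleted of ribosomal RNA was sequenced with a directional kit in 101 cycles per end, per the labels' protocols. The authors deposited raw read counts per gene, without the reads, in tables with a column per strand setting, and the submitters' processing notes name CASAVA 1.8.2, Trimmomatic 0.33, STAR 2.5.1 and DESeq2, without roles. The reverse-strand counts were used, after removal of the rows for unmapped, multimapping, featureless and ambiguous reads. Of 11253421 to 13792878 reads per line in the tables, these rows took 74.5% to 76.3%, and of gene reads 99.0% to 99.3% were on the reverse strand.

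Counts of all 8 mouse libraries (3 pXEN, 3 XEN, 2 ES) were scaled by TMM and fitted with edgeR 4.0.16 (R 4.3.3; robust quasi-likelihood fit, filterByExpr with a minimum count of 10), so the 3 groups share 1 estimate of spread. Of 24411 genes 10895 were tested, for XEN against ES, with Benjamini-Hochberg adjustment. The standard error is the log2 fold change divided by the root of the F statistic. Where all lines of a group had 0 counts, 3 summed counts stood in for the group (0.302 CPM in XEN, 0.600 CPM in ES) and the fold is a bound. Where a group held 1 to 3 counts, levels are given without a fold. Reads carry no molecular identifiers and are not independent molecules, so these floors and all intervals reflect only counting error. Symbols of 23376 genes matched GENCODE M21 (GRCm38), which gave positions.

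Genes named are the 12 highest and 12 lowest folds among called genes whose groups did not overlap, given a mean of 10 CPM or more where higher, the 10 of highest CPM called with at least 4-fold change in each direction, up to 5 called members per list by p, the 8 called genes most uneven among XEN lines, the markers, and sex-linked and Mir genes. Others are named as chosen after their values were seen. The lists and comparisons were chosen with earlier results of these data known. Alternatives were unstranded counts, DESeq2 1.42.0, no filter, upper-quartile scaling, removal of Rn45s, XEN and ES libraries only, sex as a term, a test against a 2-fold change, leaving out each line, and removal of chromosome medians. A line left as the only ES line is assumed to vary like the other groups.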

Additional observations from a re-analysis of the deposited data

Results flagged for a closer look

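The X-linked share of counts was flagged because the line labelled female stood above the line labelled male in ES but not in XEN. In ES the line labelled female stood above the line labelled male, 4.09% against 2.62% of counts other than Rn45s, a ratio of 1.56. In XEN the line labelled female stood below both lines labelled male, 2.87% against 3.15% and 2.91%, a ratio of 0.947 to their mean. The 95% exact binomial intervals of XEN1 (2.842% to 2.893%) and XEN5 (2.887% to 2.929%) overlapped even on counting error alone. Over X-linked genes the median log2 ratio of XEN1 to the mean of XEN2 and XEN5 was -0.02. The difference between the groups was not tested, and each group holds 1 female line. Xist had 1691 counts in the female XEN line and 36 in the female ES line.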

How the results depend on the processing

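Tested against a 2-fold change (edgeR's glmTreat), 1058 genes were higher and 820 lower, against 2251 and 1937 for a change of any size. Leaving out 1 line gave 1277 to 2158 higher and 1197 to 1834 lower genes, with the lowest counts without ES2. DESeq2 called 2181 and 1846, unstranded counts 2242 and 1957, no filter 2381 and 2300, the 5 XEN and ES libraries alone 2216 and 1880, a sex term 2224 and 1932, and the removal of Rn45s 2278 and 1992. Upper-quartile scaling shifted the median log2 fold change of all genes by -0.11 and called 2039 and 2270. With Rn45s kept in the total, the ratio of X-linked shares was 1.27 for ES3 over ES2 (1.56 without it) and 0.802 for XEN1 over the mean of XEN2 and XEN5 (0.947 without it). No named gene past the threshold changed direction under the alternatives run for it. The 7 chromosome medians tried with unstranded counts and with genes of at least 30 CPM kept their direction. Most lost calls came with the 2-fold test (39 values) or without ES3 (35) or ES2 (34). No paired analysis was possible because the numbers are names of lines derived separately and the groups share only the number 2. With 12998 to 14319 genes detected per line and Rn45s taking up to 50.1% of counts, genes below the filter were not tested.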

Other observations

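Between the ES lines, 49 of 5686 genes with at least 20 CPM in an ES line differed at least 4-fold on the CPM + 1 scale, 17 higher in ES2 and 32 higher in ES3. Of these 9 were X-linked, and all 9 were higher in ES3. The genes below were chosen for their difference, so their values are a description of 2 lines with no test. Grb10, an imprinted adaptor of growth factor receptors, stood at 324 CPM in ES2 and 49.5 in ES3, and Phlda2, an imprinted regulator of placental growth, at 37.4 and 5.07. Dazl, a germ cell RNA-binding protein, stood at 3.70 CPM in ES2 and 33.1 in ES3, and the X-linked homeobox gene Rhox5 at 8.64 and 170.3. Xlr3a, also X-linked, stood at 0.822 CPM in ES2 and 68.2 in ES3, and at 54.9, 97.0 and 81.4 CPM in XEN1, XEN2 and XEN5, so ES2 was the line apart. Pramel7, a gene of the inner cell mass, stood at 4.11 CPM in ES2 and 68.6 in ES3, with 0 counts in all 3 XEN lines (adjusted p = 0.0710 for XEN against ES, edgeR).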
